A study of Mus musculus with 6 samples.

Results

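The 10 genes of the A, B, D and E cyclins (Ccna1, Ccna2, Ccnb1, Ccnb2, Ccnb3, Ccnd1, Ccnd2, Ccnd3, Ccne1 and Ccne2) were followed in mouse testes taken whole at postnatal day 14. They were matched by exact symbol, and all 10 were found among the 55353 genes of the tables. The groups were 3 testis samples with a conditional deletion of Rnu11 (genotype Rnu11 cKO, called mutants here) and 3 control samples. Rnu11 encodes U11, the small nuclear RNA that recognises the 5′ splice site of the rare introns removed by the minor spliceosome. The sources used here do not give the Cre line, the strain or the alleles that the controls carry. The libraries were made from total RNA after depletion of ribosomal RNA, and the values are TPM, a relative abundance normalised for transcript length. TPM keeps no depth, and the number of reads behind a value is therefore unknown. Rnu11 read 196, 393 and 203 TPM in the mutants, against 614, 576 and 550.3 TPM in the controls, so the label held in every library while a remainder was measured in each mutant.

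Cyclins are the regulatory subunits of cyclin-dependent kinases (CDKs). D cyclins pair with Cdk4 and Cdk6 and carry growth signals into G1 by phosphorylating the pocket proteins. E cyclins pair with Cdk2 at the entry into S phase, cyclin A2 works through S and G2, and B cyclins with Cdk1 drive M phase. In the mouse testis Ccna1 belongs to late meiotic prophase and is needed for spermatocytes to enter the first division, Ccnb3 is known from leptotene and zygotene spermatocytes, and Ccnd2 is known from spermatogonia.

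The whole testis mixes germ cells and somatic cells, so fewer cells of a type and less RNA per cell cannot be told apart, and marker lists of several cell types differed in level between the groups. Of all 17959 genes tested, 11925 were on the higher side in mutants and 6034 on the lower side, which is the background for the counts by direction. Of 12 Sertoli cell markers 11 were on the higher side, and their summed level was 2121 to 2717 TPM in mutants against 1524 to 1723 TPM in controls. All 7 Leydig cell markers were on the higher side (summed level 246 to 383 TPM in mutants and 124 to 235 TPM in controls). The 7 markers of differentiating spermatogonia were all on the lower side, at 175 to 179 TPM in mutants and 194 to 205 TPM in controls, and 11 of 12 leptotene and zygotene markers were lower, at 315 to 401 TPM in mutants against 441 to 539.6 TPM in controls. Pachytene markers (8 tested, 8 lower) summed to 130.2 to 154 TPM in mutants and 134 to 261 TPM in controls, where control replicate 2 read 134 TPM and stood with the mutants. Markers of undifferentiated spermatogonia summed to 52.3 to 55.0 TPM in mutants and 45.2 to 53.1 TPM in controls. Peritubular myoid markers (3 of 5 higher) summed to 199.99 to 241 TPM and 167 to 232 TPM in mutants and controls, endothelial ones (5 of 5 higher) to 19.3 to 28.3 TPM and 17.4 to 21.1 TPM, and macrophage ones (4 of 4 tested higher) to 19.5 to 29.7 TPM and 14.1 to 21.9 TPM. Spermatid markers stayed at 1.95 to 3.26 TPM in mutants and 2.74 to 3.27 TPM in controls in sum, and no marker of any list was at 0 in all libraries. Each sum is weighted to its most abundant genes. Among Sertoli markers Clu averaged 1330 TPM in mutants and 849 TPM in controls. Among markers of differentiating spermatogonia Uchl1 averaged 90.2 TPM in mutants and 92.8 TPM in controls. The part of the marker shifts in the cyclin values was not tested.

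Cyclin levels split by gene rather than moving one way. Ccnb3, Ccnd2 and Ccnd3 were higher in every mutant than in every control, Ccnb2 and Ccne1 were lower in every mutant, and Ccna2, Ccnb1, Ccnd1 and Ccne2 overlapped. For Ccnd2 the groups overlapped once isoforms under 200 bases were left out, as described with that gene. Of the 10 genes, 9 averaged at least 1 TPM and were tested, and none passed limma with Benjamini-Hochberg adjustment over the 17959 genes tested, where 0.0278% of genes passed. At an unadjusted p under 0.05, 3 of the 9 were higher and 2 lower, against a background of 12.1% higher and 3.98% lower over all tested genes. Freedom from overlap was found in 3 higher and 2 lower cyclins, beside 14.5% and 5.77% of all tested genes. The median log2 difference (mutant minus control, of log2(TPM + 1)) was −0.11 over the 9 cyclins and 0.094 over all tested genes. At 3 libraries against 3 the smallest p of an exact permutation test is 0.1, and the p-values here rest on the spread that limma pools across genes.

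**Figure D1:**
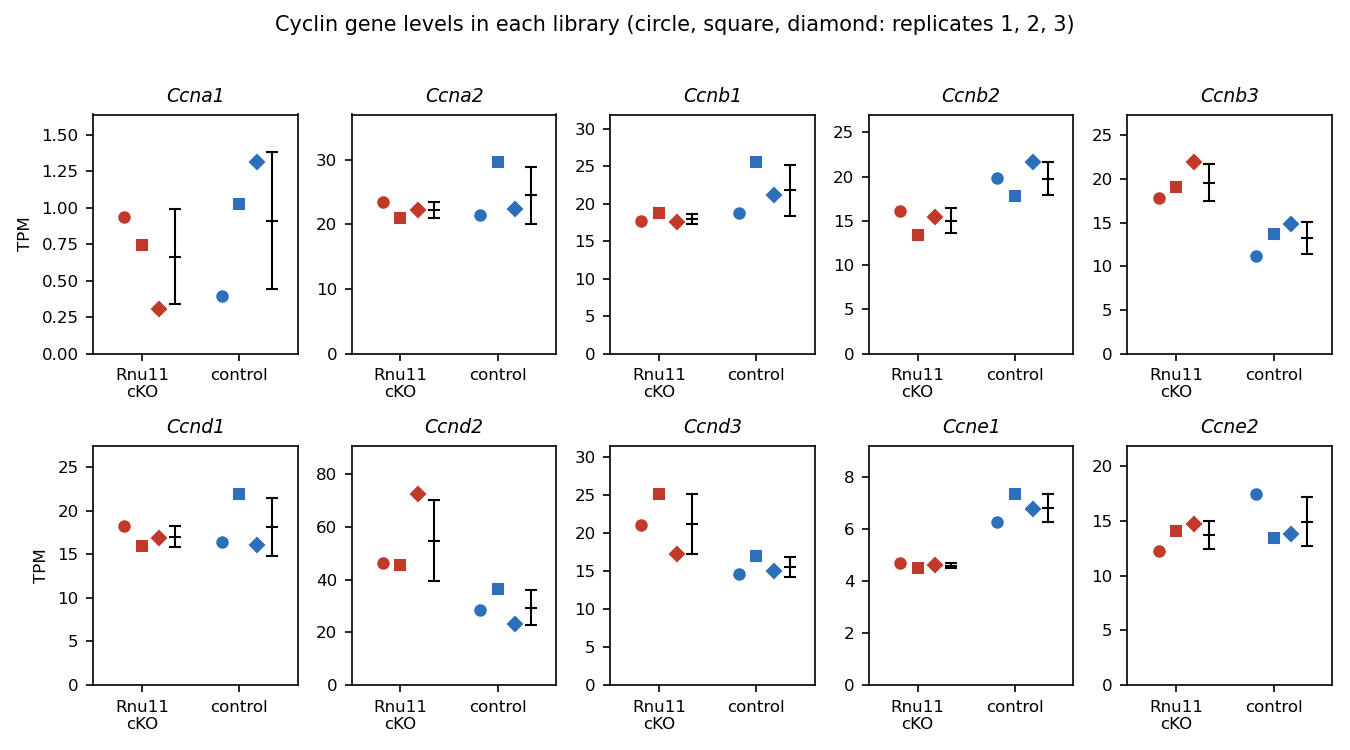
TPM of each of the 10 cyclin genes (vertical axis, starting at 0, with a scale of its own for each gene) in 3 Rnu11 cKO libraries (red) and 3 control libraries (blue); marker shapes give the replicate number and black bars the mean ± SD. Ccne1 shows the tightest mutant values, 4.50 to 4.70 TPM, below controls of 6.28 to 7.37 TPM, and the Ccnd2 panel has 1 mutant at 72.5 TPM above the other mutants.

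Ccnd2 was the most abundant cyclin gene in both groups. In mutants it averaged 54.8 TPM and was followed by Ccna2 (22.3 TPM), Ccnd3 (21.1), Ccnb3 (19.6), Ccnb1 (18.005), Ccnd1 (17.0), Ccnb2 (15.001) and Ccne2 (13.7), each of which overlapped its neighbour in that order. In controls the order was Ccnd2 (29.3 TPM), Ccna2 (24.5), Ccnb1 (21.8), Ccnb2 (19.8), Ccnd1 (18.1), Ccnd3 (15.5), Ccne2 (14.9) and Ccnb3 (13.2), again with every neighbour overlapping. By group mean, Ccnb3 thus stood above Ccnb1, Ccnd1, Ccnb2 and Ccne2 in mutants and below all of them in controls. Single libraries departed from this order. In mutant replicate 1, Ccnd1 (18.3 TPM) was above Ccnb3 (17.8 TPM). Ccnb3 was above Ccne2 in control replicates 2 (13.7 against 13.4 TPM) and 3 (14.8 against 13.8 TPM). In both groups Ccne1 (4.61 TPM in mutants, 6.81 TPM in controls) and then Ccna1 (0.66 and 0.91 TPM) came last, separated from their neighbours in every library.

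The starts of the B cyclin genes are shown as a description, and a link between them and the levels was not tested. The windows run from 250 bases before to 50 after the annotated start (RefSeq, GRCm38.p6) and are written 5′ to 3′ on the strand of the gene. Capitals mark CCAAT boxes (CCAAT, searched on both strands), the element bound by NF-Y, and the cell cycle homology region (TTTGAA or TTCGAA, both strands), the element through which repressor complexes hold mitotic genes silent in G0 and G1.
Ccnb1, chr13:100786437-100786736, minus strand: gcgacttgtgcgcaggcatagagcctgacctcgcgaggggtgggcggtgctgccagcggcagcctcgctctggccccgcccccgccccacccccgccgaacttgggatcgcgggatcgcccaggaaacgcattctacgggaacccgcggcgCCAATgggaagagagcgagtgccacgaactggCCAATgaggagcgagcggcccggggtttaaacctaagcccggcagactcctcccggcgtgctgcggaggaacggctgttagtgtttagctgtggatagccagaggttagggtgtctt
Ccnb2, chr9:70421505-70421804, minus strand: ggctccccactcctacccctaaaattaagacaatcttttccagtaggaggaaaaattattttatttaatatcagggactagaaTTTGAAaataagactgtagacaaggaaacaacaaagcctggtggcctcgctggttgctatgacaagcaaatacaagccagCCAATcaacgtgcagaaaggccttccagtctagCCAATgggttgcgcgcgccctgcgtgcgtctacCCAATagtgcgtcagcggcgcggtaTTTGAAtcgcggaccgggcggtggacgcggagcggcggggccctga
Ccnb3, chrX:7041570-7041869, minus strand: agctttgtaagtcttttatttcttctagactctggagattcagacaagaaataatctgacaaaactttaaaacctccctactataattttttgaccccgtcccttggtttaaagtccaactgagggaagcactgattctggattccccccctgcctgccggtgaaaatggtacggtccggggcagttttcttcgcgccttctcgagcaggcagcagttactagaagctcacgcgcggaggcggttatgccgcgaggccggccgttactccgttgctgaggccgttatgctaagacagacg
The Ccnb2 window has 3 CCAAT boxes and 2 matches to the cell cycle homology region, the Ccnb1 window has 2 CCAAT boxes, and the Ccnb3 window has neither. Other spellings of the cell cycle homology region were not searched, so a window without a match may still hold one. Over 32851 windows of 300 bases in the same table, 37.4% hold a CCAAT box and 19.2% hold TTTGAA or TTCGAA, so a match is a description and not a binding site. An E2F spelling (TTTCCCGC, TTTGGCGC, TTTGCCGC or TTTCGCGC, both strands), present in 2.26% of windows, was in none of the 7 windows found for 6 of the cyclins. No entry was found for Ccna2, Ccnd1, Ccnd2 and Ccne2.

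Ccnb2, which with Cdk1 acts in mitotic and meiotic M phase, was on the lower side. It lies on chromosome 9, 70407692 to 70421547 (minus strand, GRCm38, ENSMUSG00000032218.7). Its levels were 16.2, 13.4 and 15.4 TPM in mutants, against 19.9, 17.8 and 21.6 TPM in controls. Every mutant was below every control. The log2 difference was −0.38 (SE 0.11, 95% interval −0.64 to −0.11), 1.30-fold lower in mutants on the log2(TPM + 1) scale, and missed the threshold (limma, adjusted p = 0.29; 0.15 to 0.62 over the alternatives).

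Ccnb1, the essential B cyclin of cell division (chromosome 13, 100778650 to 100786570, minus strand), leaned the same way with overlap. It read 17.7, 18.8 and 17.5 TPM in mutants and 18.8, 25.6 and 21.1 TPM among controls. The highest mutant just passed the lowest control, and control replicate 2 was highest. A log2 difference of −0.25 (SE 0.12, interval −0.54 to 0.04) was measured (limma, adjusted p = 0.34). It was −0.14 without control replicate 2 and −0.12 over coding isoforms alone. A processed copy, Ccnb1-ps, read 7.96, 6.96 and 6.9997 TPM in mutants and 7.72, 10.5 and 9.52 TPM in controls; since reads of near-identical copies can be split between them, single values of both are uncertain.

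Ccnb3 went the other way from Ccnb1 and Ccnb2. This B cyclin of meiotic prophase, which in mouse oocytes promotes the onset of anaphase I, lies on chromosome X, 6979652 to 7041619 (minus strand, ENSMUSG00000051592.14). It stood at 17.8, 19.0 and 21.9 TPM in mutants, against 11.2, 13.7 and 14.8 TPM in controls. The lowest mutant was above the highest control. In log2 terms the difference was 0.54 (SE 0.13, interval 0.23 to 0.84), 1.45-fold higher in mutants, without passing the threshold (limma, adjusted p = 0.29; 0.16 to 0.62 over the alternatives). It stayed between 0.43 and 0.62 with any 1 library left out, and with isoforms restricted to coding ones it was 0.54. Its higher level stood beside lower leptotene and zygotene markers, of which 8 of 12 were below every control in every mutant and none above, beside 5.77% and 14.5% of all tested genes. In mutant replicates 1, 2 and 3 that marker sum was 346, 315 and 401 TPM, against 539.6, 441 and 539 TPM in control replicates 1, 2 and 3. Among controls Ccnb3 was lowest in replicate 1 (11.2 TPM) and highest in replicate 3 (14.8 TPM), where the marker sums were nearly equal (539.6 and 539 TPM). Among mutants replicate 3 was highest for Ccnb3 and for the marker sum. The part of these markers in the Ccnb3 values was not tested.

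Ccnb3 made up more of the summed B cyclin TPM in mutants. Its share of the summed TPM of the 3 genes was 34.5%, 37.2% and 39.9% in mutants, against 22.5%, 24.0% and 25.7% in controls. The Ccnb1 share was 34.2%, 36.7% and 31.9% in mutants and 37.7%, 44.8% and 36.7% in controls. Summed B cyclin levels overlapped, at 51.7, 51.3 and 54.9 TPM in mutants and 49.9, 57.1 and 57.5 TPM in controls. These shares are descriptions with no test, because the genes were chosen together.

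**Figure D2:**
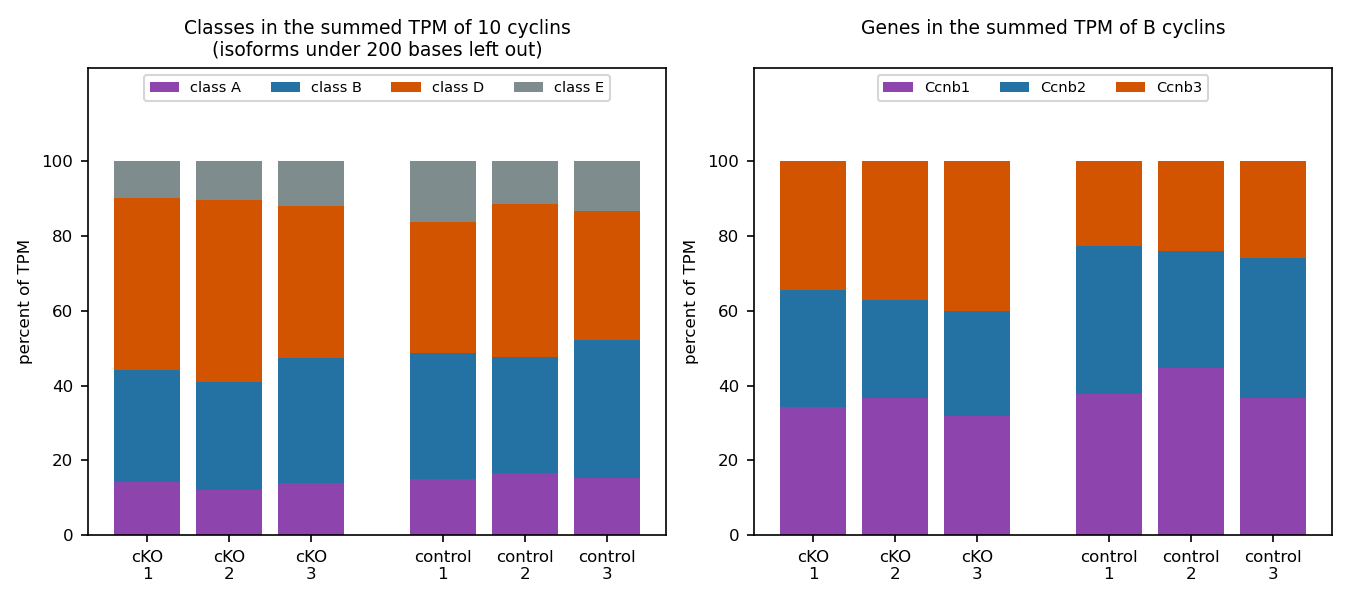
Stacked bars of each library, Rnu11 cKO on the left and control on the right, in percent of TPM. The left panel gives the classes within the summed TPM of all 10 cyclins with isoforms under 200 bases left out, and the right panel the 3 genes within the B cyclins, where Ccnb3 takes 34.5% to 39.9% in mutants and 22.5% to 25.7% in controls.

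Among the D cyclins, Ccnd2 had the widest separation at the gene level and the least secure value. Ccnd2 (chromosome 6, 127125162 to 127152193, minus strand, ENSMUSG00000000184.12) read 46.2, 45.7 and 72.5 TPM in mutants, against 28.5, 36.4 and 23.2 TPM in controls. All mutants were above all controls, with mutant replicate 3 highest. The log2 difference was 0.87 (SE 0.23, interval 0.33 to 1.41), 1.83-fold higher (limma, adjusted p = 0.29; 0.13 to 0.62 over the alternatives). Without mutant replicate 3 it was 0.65.

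The isoform tables show where the high value of that library came from. Ccnd2-205, a noncoding processed transcript of 115 bases in 2 exons (127150781 to 127150961) that lies wholly within the first exon of the long coding isoform ENSMUST00000000188, was listed at 40.4 TPM in mutant replicate 3 and at 0 in the other 5 libraries. Another processed transcript, Ccnd2-203, of 127 bases, was listed at 5.91 TPM in mutant replicate 1 and 7.88 TPM in control replicate 1 and at 0 elsewhere. They were the only isoforms of the 10 genes under 200 bases. TPM divides by transcript length, and the number of reads behind these values is unknown. With isoforms under 200 bases left out for every gene, an alternative chosen after the values were seen, Ccnd2 read 40.2, 45.7 and 32.2 TPM in mutants and 20.6, 36.4 and 23.2 TPM in controls. The groups then overlapped, since mutant replicate 3 was below control replicate 2, and the log2 difference was 0.57 (SE 0.21; limma, adjusted p = 0.25). Over coding isoforms alone it was 0.59 (limma, adjusted p = 0.29).

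The tested coding isoforms of Ccnd2 both leaned higher in mutants. That long isoform (6330 bases) overlapped, at 23.6, 27.0 and 18.7 TPM in mutants and 14.6, 23.7 and 15.5 TPM in controls (log2 difference 0.36). The shorter coding model Ccnd2-206 (627 bases) was above every control in every mutant, at 12.5, 14.4 and 10.6 TPM in mutants against 3.94, 9.16 and 4.11 TPM in controls. Its log2 difference was 1.08 (SE 0.29; limma, unadjusted p = 0.0076, adjusted p = 0.43 over 44197 isoforms). For both isoforms control replicate 2 was the highest control. Their shares of the gene, with all isoforms counted, overlapped between the groups. The share test found no difference (limma on the log2 ratio, adjusted p = 0.86 for the long isoform and 0.90 for Ccnd2-206).

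**Figure D3:**
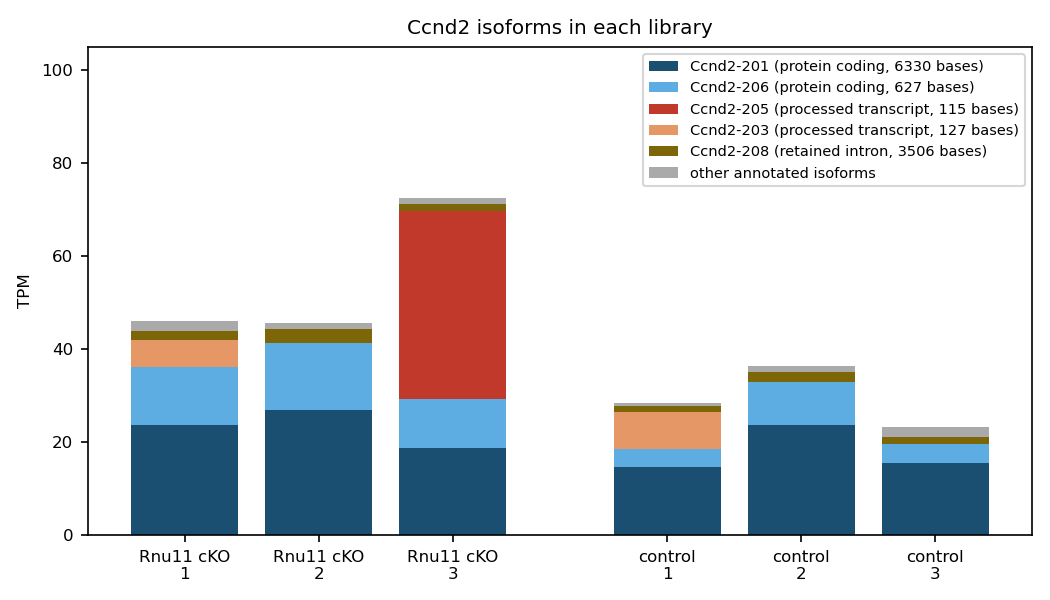
TPM of Ccnd2 isoforms stacked for each library, with 3 Rnu11 cKO libraries left of 3 control libraries and isoforms averaging under 1 TPM pooled in grey. The red block of 40.4 TPM in mutant replicate 3 is the 115-base Ccnd2-205, which is at 0 in the other 5 libraries.

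Ccnd3 was also on the higher side and did not depend on such isoforms. This D cyclin (chromosome 17, 47505051 to 47599691, plus strand, ENSMUSG00000034165.16) read 21.001, 25.2 and 17.3 TPM in mutants, against 14.6, 17.0 and 14.9 TPM in controls. Mutants were above controls by a narrow margin between mutant replicate 3 and control replicate 2. The log2 difference was 0.41 (SE 0.14, interval 0.07 to 0.75; limma, adjusted p = 0.29), and it was 0.28 without mutant replicate 2 and 0.54 without mutant replicate 3. Its main coding isoform Ccnd3-205 gave 13.5, 19.2 and 12.6 TPM in mutants and 9.13, 11.3 and 7.94 TPM in controls, also without overlap (log2 difference 0.62; limma, adjusted p = 0.43).

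Ccnd1, the D cyclin best known as a target of growth factor signals (chromosome 7, 144929931 to 144939925, minus strand), showed no difference detectable here. It stood at 18.3, 15.9 and 16.9 TPM in mutants and 16.4, 22.0 and 16.1 TPM in controls. Its log2 difference was −0.073 with a 95% interval of −0.39 to 0.25 (limma, adjusted p = 0.80), and it became 0.065 without control replicate 2. Within the D class, Ccnd1 took 23.0%, 18.4% and 25.5% of the TPM in mutants, against 31.7%, 29.1% and 29.6% in controls, with the short isoforms of Ccnd2 left out. Ccnd2 took 50.6%, 52.7% and 48.5% in mutants and 39.9%, 48.3% and 42.8% in controls on the same basis. The summed level of the class was then 79.5, 86.8 and 66.4 TPM in mutants and 51.6, 75.3 and 54.2 TPM in controls, which overlap; with all isoforms it was 85.4, 86.8 and 107 TPM in mutants and 59.5, 75.3 and 54.2 TPM in controls.

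Ccne1 had the smallest p-value of the 9 genes tested. This E cyclin, a partner of Cdk2 at the start of DNA replication, lies on chromosome 7, 38097984 to 38107534 (minus strand, ENSMUSG00000002068), and read 4.70, 4.50 and 4.62 TPM in mutants, against 6.28, 7.37 and 6.78 TPM in controls. The mutants were tightly grouped and wholly below the controls. The log2 difference was −0.48 (SE 0.10, interval −0.70 to −0.25), 1.39-fold lower (limma, unadjusted p = 0.0016, adjusted p = 0.29; 0.15 to 0.62 over the alternatives). Its main coding isoform followed, at 3.97, 4.11 and 4.23 TPM in mutants and 5.36, 5.95 and 5.81 TPM in controls.

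Ccne2, the other partner of Cdk2, overlapped at the gene level and not in the sum of its coding isoforms. The gene (chromosome 4, 11191351 to 11204779, plus strand) read 12.3, 14.0 and 14.7 TPM in mutants and 17.5, 13.4 and 13.8 TPM in controls, with a log2 difference of −0.11 (interval −0.41 to 0.19; limma, adjusted p = 0.66) that was 0.0026 without control replicate 1. Coding isoforms summed to 9.76, 9.48 and 11.2 TPM in mutants, against 13.8, 12.1 and 12.2 TPM in controls, without overlap (log2 difference −0.30; limma, adjusted p = 0.28). The coding isoforms Ccne2-202 (−0.37) and Ccne2-207 (−0.42) were lower in every mutant. For Ccne2-202 the margin was narrow, with mutant replicate 3 at 7.25 TPM and control replicate 3 at 7.26 TPM. The other tested coding isoform leaned higher, with overlap (log2 difference 0.20). It read 2.57, 2.59 and 1.98 TPM in mutants and 2.51, 1.86 and 1.52 TPM in controls. The noncoding Ccne2-206 was higher, at 2.04, 2.31 and 2.19 TPM in mutants and 1.80, 0.99 and 1.64 TPM in controls. Ccne2-206 made up 16.0% ± 0.96 of the gene in mutants and 9.87% ± 2.29 in controls (SD, n = 3; limma on the log2 ratio, unadjusted p = 0.012, adjusted p = 0.86). The summed level of the E class was 17.0, 18.5 and 19.4 TPM in mutants and 23.7, 20.8 and 20.6 TPM in controls.

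The A cyclins gave no difference beyond the spread. Ccna2, needed for S phase and the entry into mitosis (chromosome 3, 36564865 to 36572150, minus strand), read 23.5, 20.96 and 22.3 TPM in mutants and 21.5, 29.6 and 22.4 TPM in controls. Its log2 difference was −0.12 (interval −0.44 to 0.20; limma, adjusted p = 0.65) and became 0.018 without control replicate 2, the high control. Ccna1 was below the filter of 1 TPM and was not tested. It read 0.94, 0.75 and 0.30 TPM in mutants and 0.40, 1.03 and 1.31 TPM in controls, with no order between the groups.

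**Figure D4:**
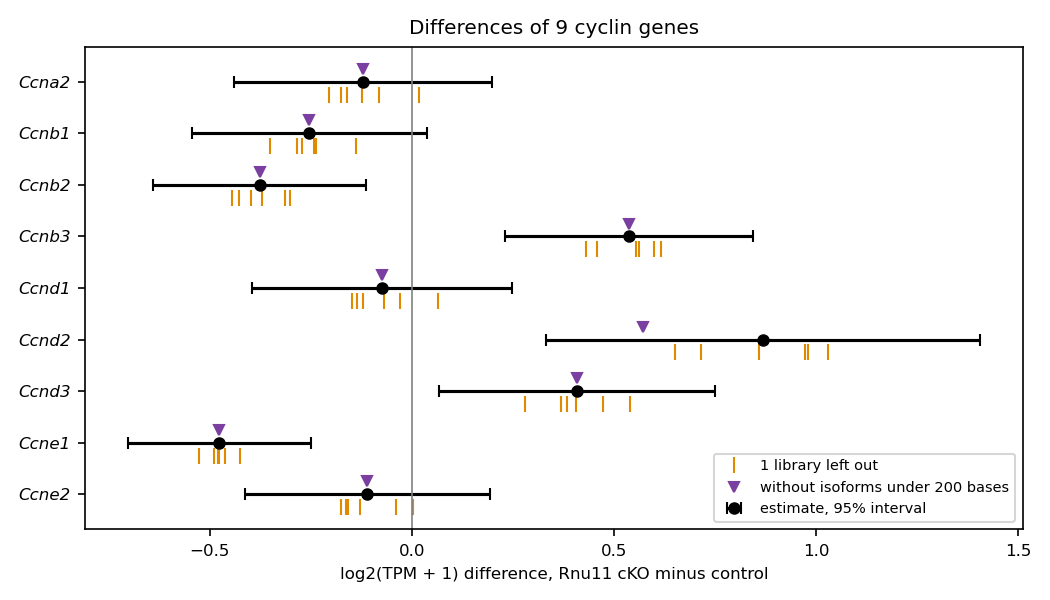
Log2(TPM + 1) difference of the 9 tested cyclins, Rnu11 cKO minus control (horizontal axis), with 95% intervals (black), the values with 1 library left out (orange ticks) and without isoforms under 200 bases (purple triangles). Ccnd2 is the gene whose triangle, at 0.57, leaves the point at 0.87; Ccna2, Ccnd1 and Ccne2 are the genes whose ticks reach both sides of 0.

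The authors' deposited table lists log2 fold changes of mutant over control that it calls confident, by a rule that the sources used here do not state. In the authors' deposited table these are 0.55 for Ccnb3, 0.49 for Ccnd2 and 0.47 for Ccnd3, −0.52 for Ccne1, −0.38 for Ccnb2 and −0.24 for Ccnb1. For the remaining genes the authors' deposited table gives −0.24 for Ccna1, 0.00043 for Ccnd1 and 0 for Ccna2 and Ccne2.

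Of 65 annotated isoforms of the 10 genes, 27 in 9 genes averaged at least 1 TPM and were tested. None passed limma with adjustment over all isoforms (0.0136% passed), and 3 higher and 5 lower were at an unadjusted p under 0.05, beside 8.06% and 3.18% of all isoforms. The groups did not overlap in 10 of the 27, of which 5 were higher and 5 lower, beside 11.6% and 5.17% of all tested isoforms. The 3 higher at that p were Ccnb3-202, Ccnd2-206 and Ccnd3-205, all coding, and the 5 lower were Ccnb1-203, Ccne2-202, Ccne2-207 and the main coding isoforms of Ccnb2 and Ccne1. Ccnb3-202, which made up 89.1% of its gene in mutants and 95.1% in controls on average, read 16.3, 18.8 and 16.9 TPM in mutants against 10.9, 12.3 and 14.6 TPM in controls (log2 difference 0.44; limma, unadjusted p = 0.013). The other tested isoform of Ccnb3 overlapped, at 1.53, 0.20 and 5.04 TPM in mutants and 0.32, 1.39 and 0.24 TPM in controls. Its 5.04 TPM in mutant replicate 3 put that library highest for the gene, whereas Ccnb3-202 was highest in mutant replicate 2. An isoform of Ccna2 annotated for nonsense-mediated decay, Ccna2-203, held 37.2% of that gene in mutants and 38.2% in controls on average, with overlap. Among the 7 tested isoforms annotated with a retained intron, 2 were on the higher and 5 on the lower side. The Ccnb1 isoform Ccnb1-203, of this kind, read 1.83, 1.57 and 1.71 TPM in mutants and 2.27, 3.21 and 2.88 TPM in controls (limma, adjusted p = 0.43). Its Ccna2 counterpart Ccna2-202 read 1.34, 1.57 and 1.53 TPM in mutants and 1.13, 1.01 and 1.08 TPM in controls (limma, adjusted p = 0.48). Of 27 isoform shares tested, none passed the adjustment (0.0112% of all shares passed), 4 were at an unadjusted p under 0.05, beside 5.78% of all shares, and 3 had no overlap, beside 11.7% of all shares.

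Intron sequence could be read for 11 of the 114 annotated introns of these genes, in Ccnb1, Ccnd2, Ccnd3 and Ccne1, where an annotated transcript covers the intron. All 11 began with GT and ended with AG, and none began with GTATCC or ATATCC, the start of a minor intron. The remaining introns were not read, so whether they are minor introns was not examined.

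Among the catalytic partners of the cyclins, 4 CDK genes, none passed the test (limma, adjusted over all genes) and none was at an unadjusted p under 0.05 on the deposited scale. Cdk4 averaged 69.2 ± 7.12 TPM in mutants and 58.3 ± 6.81 TPM in controls (SD, n = 3; log2 difference 0.25), Cdk6 differed by 0.13 and Cdk1, the partner of the B cyclins, by −0.11. Cdk2 differed by 0.079, and by −0.028 and −0.036 after median-ratio and protein-coding scaling. With the same scalings Cdk1 differed by −0.22 and −0.23 (limma, unadjusted p = 0.016 and 0.014, adjusted p = 0.26 in both), Cdk4 by 0.14 and 0.13, and Cdk6 by 0.033 and 0.025. CDK inhibitor genes (7 tested, median 0.16) were also without a call and without an unadjusted p under 0.05. Of them 5 were on the higher side, beside 11925 of all 17959 tested genes. Cdkn2c, an inhibitor of Cdk4 and Cdk6, differed by −0.40, while Cdkn1c differed by 0.20, Cdkn2b by 0.18 and Cdkn1b by 0.16. Single libraries moved these by over 1.5 times, to −0.23 for Cdkn2c and 0.064 for Cdkn1b without mutant replicate 2, 0.097 for Cdkn1c without control replicate 1 and 0.104 for Cdkn2b without control replicate 3. Among 8 enzymes that switch CDK activity, none passed and 1 was lower at an unadjusted p under 0.05, beside 3.98% of all tested genes (median −0.016). That gene was Pkmyt1, a kinase that restrains Cdk1, at 2.75 ± 0.61 TPM in mutants and 4.13 ± 0.71 TPM in controls (SD, n = 3). Ccnh (−0.20), Cdc25b (0.22) and Cdc25a (0.15) came next by p-value.

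The listed genes of cyclin destruction and cyclin-CDK binding lay mostly on the lower side. Of 10 tested, 8 were lower with a median of −0.29, beside 0.094 for all genes; none passed over all genes, 4 were lower and none higher at an unadjusted p under 0.05, and 5 were below every control in every mutant. Over all tested genes 3.98% were lower and 12.1% higher at that p, and 5.77% were lower without overlap. Cdc20, which turns the anaphase-promoting complex on B cyclins, read 33.2, 29.9 and 33.5 TPM in mutants, against 44.4, 40.2 and 47.5 TPM in controls (log2 difference −0.44, SE 0.10; limma, adjusted p = 0.29). Spdya, or Speedy A, which activates Cdk2 at meiotic telomeres, read 5.12, 4.52 and 5.90 TPM in mutants and 10.2, 6.18 and 11.01 TPM in controls (−0.68, with −0.91 without control replicate 2 and −0.54 without control replicate 3). Cul1, the scaffold of the SCF ubiquitin ligase that removes E cyclins, differed by −0.36, and Inca1, an inhibitor of Cdk2 that binds cyclin A1, by −0.49. Fbxw7, the SCF subunit that recognises cyclin E and named here after its values were seen, was the fifth without overlap, at 7.32 ± 0.076 TPM in mutants and 8.33 ± 0.26 TPM in controls (SD, n = 3). Its log2 difference was −0.17 (limma, adjusted p = 0.34). The 2 genes on the higher side, Skp2 (0.32) and Cks1b (0.059), and Fzr1 (−0.0002) overlapped and were also named after their values were seen. Leptotene, zygotene and pachytene markers were lower in the same mutants, and control replicate 2 was the lowest control for Spdya and for pachytene markers alike; their part in these values was not tested.

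The pocket proteins, substrates of D and E cyclin kinases, split. Rbl1, or p107, read 8.74, 8.05 and 10.99 TPM in mutants, against 13.5, 12.4 and 12.7 TPM in controls (log2 difference −0.45). Rbl2, or p130, read 15.9, 19.4 and 14.9 TPM in mutants, against 12.6, 13.0 and 13.8 TPM in controls (0.32). Both were free of overlap, beside 14.5% of all tested genes higher and 5.77% lower without overlap. Neither passed (limma, adjusted p = 0.29), and Rb1 differed by 0.12.

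The list of other cyclins, which also holds the gene of a cyclin D-binding protein, Ccndbp1 (0.086), showed no common direction. Of its 16 tested genes 10 were on the higher side, with a median of 0.027. Of all 17959 tested genes, 11925 were on the higher side. None passed; 1 was higher and 1 lower at an unadjusted p under 0.05, and 3 were higher and 2 lower without overlap, beside 14.5% and 5.77% of all tested genes without overlap and 12.1% and 3.98% at that p. Cntd1, a cyclin-like protein of crossover maturation, read 4.77, 6.26 and 7.03 TPM in mutants, against 17.7, 7.57 and 16.8 TPM in controls. Its log2 difference was −1.03 (SE 0.31; limma, adjusted p = 0.29), with −1.39 without control replicate 2, the control near the mutants, and −0.83 without control replicate 1. Ccnj differed by 0.35, Ccnl1 by 0.35 and Ccng1 by 0.30; Ccnjl and Ccnt2 (higher) and Ccnc (lower), the others without overlap, were named after their values were seen.

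**Figure D5:**
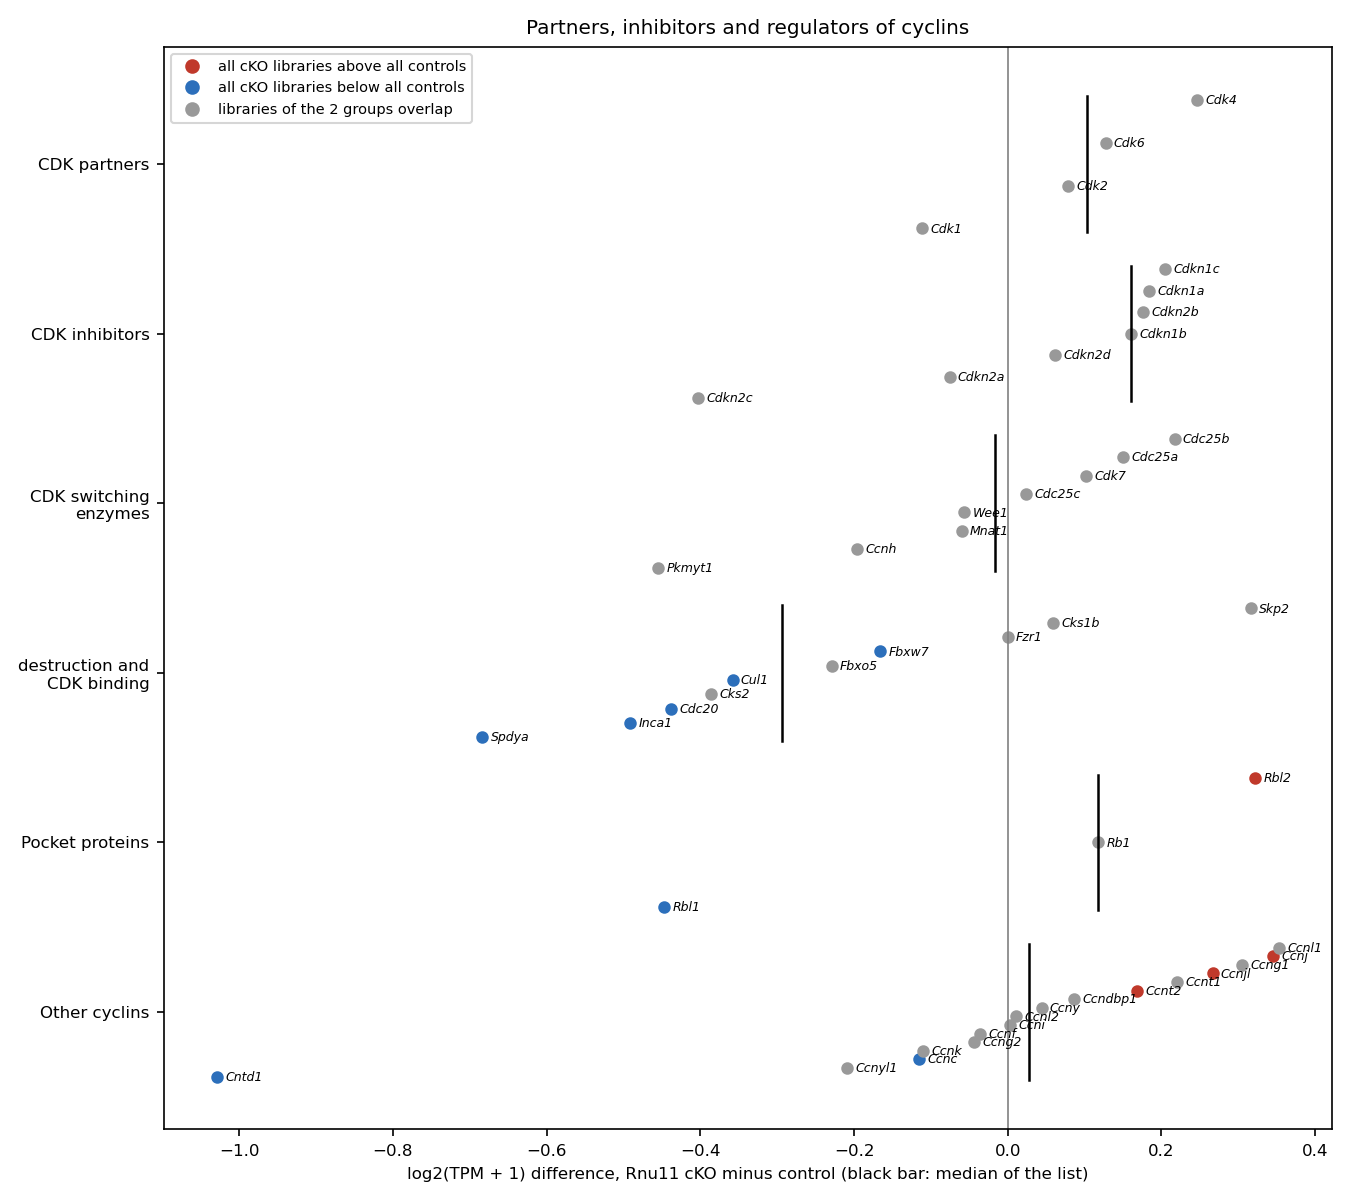
Log2(TPM + 1) difference, Rnu11 cKO minus control (horizontal axis), of each tested partner, inhibitor or regulator gene, in rows by list with the median of each list as a black bar. Red points have all mutants above all controls, blue points all mutants below, and grey points overlap; the destruction and CDK binding row has the most blue points, 5 of 10 beside 5.77% of all tested genes, and a median of −0.29.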

How the data were processed

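Genotype and replicate number came from the labels, and each library was taken as 1 animal, since the series' design text speaks of animals; p-values measure the spread between these samples. Per the submitters' processing notes, HISAT2 and the GRCm38 build were used; the sources used here do not name the quantifier or its annotation. The kit was stranded, per the labels. For every library the authors deposited gene and isoform TPM without counts. Per the file headers, a table of the series also holds the authors' mean TPM per group, equal to the means of the 3 libraries, and log2 fold changes, used for description only.

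With limma 3.58.1 in R 4.3.3, log2(TPM + 1) of genes averaging at least 1 TPM was compared (eBayes with a trend, two-sided). P-values were adjusted by Benjamini-Hochberg over all features tested, and 0.05 was the threshold. Fold changes are on that scale and understate those of low genes. Isoforms were tested alike. For shares, the log2 ratio of an isoform to the rest of its gene (0.1 TPM added to both) was fitted with no trend, where the gene averaged 5 TPM or more and the isoform 5% to 95% of it.

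The members and lists were chosen with earlier results of these data known. The rule for named genes took all members, their isoforms of at least 1 TPM (given singly or by count), and the 4 genes of smallest p in each list; the symbol Skp1 was not matched. Isoforms were joined to GENCODE M21 (141429 of 142647). Overlaps with genes on the opposite strand (Exosc9 with Ccna2, LTO1 with Ccnd1, Bysl with Ccnd3, Ints8 with Ccne2, and Gm43126 with Ccnd2) were not separated, since whether quantification used strand is not given. The fits were tested on simulated data with known changes.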

Additional observations from a re-analysis of the deposited data

How the results depend on the processing

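Counted over all those tested, none of the cyclin genes, their isoforms or the partner and regulator genes was called by limma with a pseudocount of 0.1, no filter, a filter of 5 TPM, median-ratio or protein-coding scaling, a replicate block, no trend or omission of any 1 library. For genes alone this also held without isoforms under 200 bases and over coding isoforms, both chosen after seeing the data. No isoform share was called with a pseudocount of 1, a range of 1% to 99% of the gene, a trend, the block or omission of any 1 library. Ccna2, Ccnd1 and Ccne2 changed sign with 1 library left out, at −0.20 to 0.018, −0.15 to 0.065 and −0.18 to 0.0026, Ccna2-203 ran from −0.50 to 0.18 and Ccnd2-203 from −1.05 to 0.93; Cdk2 read −0.028 and −0.036 after median-ratio and protein-coding scaling. The cyclins free of overlap numbered 5, and 6 after either scaling, where Ccnb1 joined them. They numbered 4 without isoforms under 200 bases, where Ccnd2 overlapped, and 5 over coding isoforms, where Ccnd2 overlapped and Ccne2 did not. With 1 library left out they numbered 5 to 6, a count that cannot fall below 5, since groups already apart stay apart. The shares of all tested genes free of overlap in these settings are not given here. Over all genes 5 were called, 3 with a filter of 5 TPM, no trend or either scaling, 8 with a pseudocount of 0.1, 0 with no filter, 0 with the replicate block, 1 without isoforms under 200 bases and 2 to 8 with 1 library left out; the cause was not tested. The sample titles number the libraries and do not state a pairing. Deviations of same-numbered libraries from their group means correlated at −0.069, 0.035 and 0.077, which shows no pairing and cannot exclude it. The replicate block called 0 cyclins. The median of all genes was 0.094, and 0.0016 and −0.0054 after the scalings. TPM keeps no depth, which limits what can be said of isoforms listed at 0.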
